A study of Mus musculus with 20 samples.

Results

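The serum-induced immediate early transcription factors examined here are 10 genes: the FOS family members Fos, Fosl1 and Fosl2, the JUN family members Jun, Junb and Jund, the zinc finger factors Egr1 and Egr2, and Myc and Srf. They were chosen by symbol, and every probe set that the platform annotation gives to these symbols was taken. That gave 16 of the 45037 probe sets that are not controls, for 10 of the 18193 genes with a probe set of their own. A probe set is a group of short oligonucleotides on the array that together measure the 3' part of a transcript. Fosl1, Fosl2, Jun, Jund, Egr2 and Srf had 2 probe sets each, and the other 4 genes had 1.

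RNA came from clonal lines derived from Swiss 3T3, an immortalized mouse embryonic fibroblast strain, and each line is 1 clone. The 4 preadipose lines were Swiss 2, Swiss 8 and Swiss 9, with 3 arrays each, and Swiss 19, with 2 arrays. The 3 non-adipogenic lines were Swiss 3, Swiss 5 and Swiss 22, with 3 arrays each. All 20 arrays were of proliferating cells kept in DMEM with 10% bovine serum, in which the preadipose lines do not differentiate, so every value is a level in continuous serum and no array followed serum starvation or a serum pulse. Whether same-line arrays stem from independent cultures is not labelled. The p-values of line comparisons therefore cover the spread between arrays alone, and that spread may be technical.

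Serum growth factors and lysophospholipids act through the ERK cascade and RhoA to switch on genes such as Fos and Egr1 without new protein synthesis. SRF, present before the stimulus, sits on CArG boxes and recruits ternary complex factors or MRTF coactivators. FOS and JUN proteins dimerize into AP-1, EGR1 and EGR2 bind GC-rich sites, and MYC with MAX drives growth genes. Fos and Egr1 RNA typically peaks within the first hour and is quickly degraded, whereas Fosl1, itself an AP-1 target, and Jund stay on in cells that keep cycling. In cultures of 3T3 preadipocytes, AP-1 and MYC are known as factors that change as growth arrest and fat cell formation begin.

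Levels are given as scaled intensity, the deposited linear intensity after each array was scaled to a trimmed mean of 500, and fold values are ratios of these. Differences were tested as log2 of (intensity + 32) after quantile normalization. The offset is large beside dim signals, so the log2 difference of a dim gene understates its fold. Background was the 95th percentile of 27 bacterial control probe sets that received no RNA, averaged over a line's arrays, and ran from 76.5 to 143 between lines. Levels of different probe sets are not compared. In bulk RNA of a culture, fewer cells with a transcript and less transcript per cell cannot be told apart.

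The arrays differed in brightness. Mean deposited intensity ran from 26.8 to 160 (a ratio of 5.97). By their hybridization spikes, which are added in equal amounts, 11 arrays were dim and 9 bright, with a gap of 1.57-fold between them. Swiss 2, Swiss 8, Swiss 9 and 2 arrays of Swiss 3 were dim, and Swiss 19, Swiss 5, Swiss 22 and replicate 3 of Swiss 3 were bright, so that brightness moved with class. Even so, 19 of 20 arrays correlated best with an array of their own line, and no arrays were identical. The 3'/5' signal ratio of Actb, a sign of RNA integrity, stayed between 0.969 and 1.10. All 10 fibroblast markers were above background in all 7 lines (summed scaled intensity 269516 to 346528 in preadipose and 249102 to 317944 in non-adipogenic lines). Of the markers of other cell types, none of the 5 endothelial, 2 of the 5 epithelial, 5 of the 7 macrophage and leukocyte and 2 of the 4 mature adipocyte markers measured were above background in every line. Ptprc, Itgam, Cdh1, Krt19, Pecam1, Tie1 and Lep were not above background in any line. Those above it in every line included Cd68, Csf1r, Adgre1, Cd14 and Lyz2 of the macrophage and leukocyte list. The part of these markers in the results below was not tested.

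The clonal lines differed widely in these genes, and no probe set of them passed the test between the adipogenic classes on line means. Some Fos, Fosl1 and Fosl2 probe sets passed in alternative fits, given below with their limits. A moderated F test over the 7 lines (limma, adjusted p below 0.05 with Benjamini-Hochberg adjustment over all 45037 probe sets) called 13 of the 16 probe sets, from 9 of the 10 genes. With each array scaled to the trimmed mean before the offset the count was 8, and the share over all probe sets in that setting is not given here. No longer called were 1422931_at of Fosl2, both Jun and both Srf probe sets (adjusted p from 0.0575 to 0.0999), which left Jun and Srf with no call. As fitted, the same test called 25.2% of all probe sets, 41.8% of those above background in at least 4 lines, and 34.0% of genes by their brightest probe set. Both Egr2 probe sets and 1440265_at, the dimmer Jund probe set, were not called. In contrasts of each of the 21 pairs of lines, 116 of 336 tests on these probe sets were called (34.5%), against 9.19% of tests over all probe sets and 15.3% over those above background in at least 4 lines. The 116 calls became 64 with the spike level as a covariate, 183 with arrays centred on their medians and 194 without normalization. Calls over all probe sets rose as well with median centring: the F test called 11354 as fitted and 32790 with arrays centred on their medians. With the spike level as a covariate, that count was not among those that changed strongly. Pairwise shares over all probe sets were not counted under these settings, so the changes are not read as particular to these genes. The counts of pairs given for each gene below are those of the fit with 116. Pairs within a class gave 43 calls (29.9% of their tests) and pairs between classes 73 (38.02%), beside 6.71% and 11.1% of such tests over all probe sets. Swiss 5 and Swiss 22 were the closest pair, with only Junb called among the 16 and 0.804% of all probe sets.

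The preadipose lines as a class were then set against the non-adipogenic lines, with the mean of each line as 1 replicate. None of the 16 probe sets passed (limma on 7 line means, adjusted p from 0.226 to 0.963). The test called 0.819% of all probe sets, 0.275% as higher and 0.544% as lower in preadipose lines, and 1.19% of genes by their brightest probe set. At an unadjusted p below 0.05 there were 3 probe sets, of Fosl2, Fosl1 and Fos, against 12.6% of all probe sets. Without Swiss 3, or without Swiss 22, only 1 of the 16 had such a p. The 2 sets of normalized line means were apart, with no overlap, for 1 of the 16 probe sets, that of Fosl2, against 11.6% of all. Over the 10 genes by their brightest probe set, 6 differences were positive with a median of 0.09, beside a median of 0.0033 over all genes. The signs depended on the scaling: with arrays centred on their medians, or with no normalization, the differences of Jun, Junb, Jund and Myc by that probe set turned negative. Array brightness moves with class, so values within the dim and within the bright arrays are given beside the class differences. Within the dim arrays Swiss 3 stands alone against 3 preadipose lines, and within the bright arrays Swiss 19 stands alone against 3 non-adipogenic lines. Both fits take the lone line to be as variable as the rest.

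**Figure D1:**
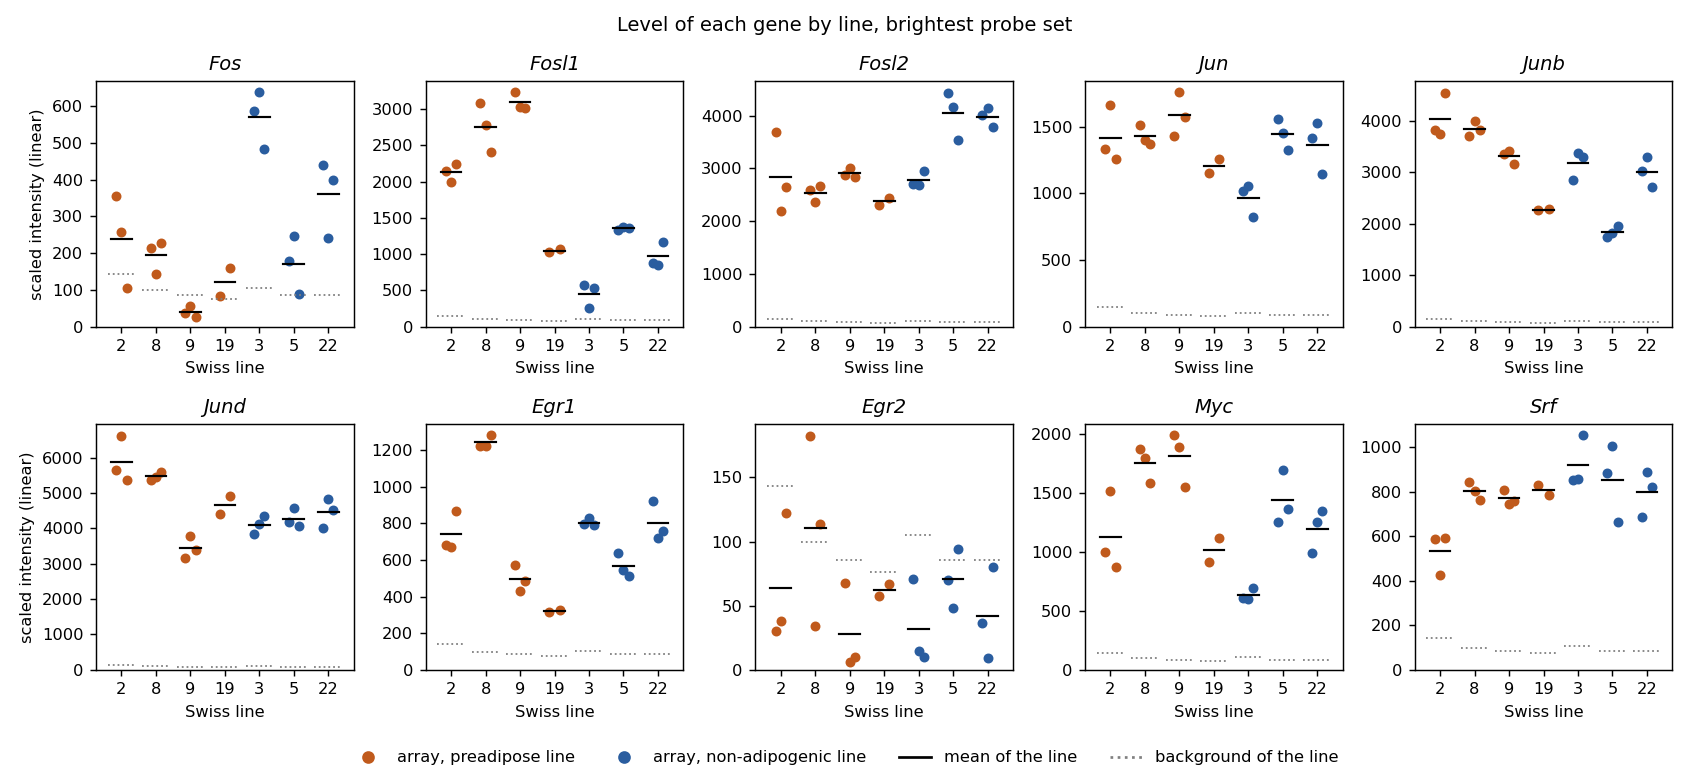
Scaled intensity (linear axis from 0) of the brightest probe set of each of the 10 genes in the 7 lines, with points for arrays (orange, preadipose; blue, non-adipogenic), bars for line means and dotted lines for the line's background. Fosl1 lies highest in Swiss 9 (3093) and lowest in Swiss 3 (452), Fos runs the other way (39.5 and 570.0), and Egr2 is above background in Swiss 8 alone.

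Fos, the prototype immediate early gene whose protein must pair with a JUN protein to bind DNA, was highest in Swiss 3 and below background in Swiss 9. On the preadipose arrays its scaled intensity was 356, 258 and 106 in Swiss 2, 215, 145 and 228 in Swiss 8, 37.8, 55.4 and 25.3 in Swiss 9, and 84.2 and 160.4 in Swiss 19. On the non-adipogenic arrays it was 587, 638 and 485 in Swiss 3, 178, 248 and 87.6 in Swiss 5, and 441, 242 and 398 in Swiss 22. Every array of Swiss 3 was above every array of the other lines, and every array of Swiss 9 was below every other array. The arrays of Swiss 2, Swiss 8 and Swiss 5 overlapped.

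The level in Swiss 3 (570.0 ± 78.0, SD, n = 3 arrays) was at least 6.64 times that in Swiss 9 (39.5 ± 15.1, n = 3), counted against the background of Swiss 9. Swiss 3 was higher than every line except Swiss 22 in the pairwise tests, with adjusted p from 1.28e-05 against Swiss 9 to 0.00286 against Swiss 2. Swiss 22 was also higher than Swiss 9 (limma, adjusted p = 0.00100) and Swiss 19 (adjusted p = 0.0456). In the order Swiss 3, 22, 2, 8, 5, 19, 9 no neighbours differed beyond their spread, and 7 of 21 pairs were called. The intensity behind the level of Fos was small on dim arrays: in Swiss 2 the deposited values were 10.6, 7.4 and 2.6, so the fit, with its offset of 32, compressed these differences.

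Over the classes, Fos averaged 149 ± 87.9 (SD, n = 4 lines) in preadipose and 367 ± 199.5 (SD, n = 3 lines) in non-adipogenic lines, at least 2.28-fold lower with Swiss 9 set to its background. The log2 difference of -0.44 (95% interval -0.82 to -0.051) did not pass (limma, adjusted p = 0.328). It was -0.28 without Swiss 3, -0.81 within the dim and -0.43 within the bright arrays. Fitted on arrays in place of line means, with line as random block, it passed (limma, adjusted p = 0.0305). That fit used 1 correlation of 0.174 between arrays of a line for all probe sets. Lines of a class held 43.3% of the variation of Fos and arrays of a line 16.3%. Its arrays were thus far more alike within a line than the fit assumed, and that p is too small. The fit called 1680 probe sets as higher and 1965 as lower.

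The promoter of Fos is shown because this gene had negative correlations with the brightest probe sets of Fosl1, Jun and Myc across the lines. No window of Fosl1, Egr1 or Myc was searched or is shown. The windows used, from the other 7 of the 10 genes, are the 250 bases before a transcription start in RefSeq on GRCm38.p6. They were searched on both strands for TGACGT (a cyclic AMP response half-site, which lies within TGACGTCA), TGACGTCA, TGANTCA (AP-1), TGACATCA (the site described in the Jun promoter), CACGTG (the E-box of MYC), GCGNGGGCG (EGR), TATAAA and the CArG box of SRF. The window of Fos, chr12:85473640-85473889 on the plus strand, is given 5' to 3' with matches in capitals.
Fos: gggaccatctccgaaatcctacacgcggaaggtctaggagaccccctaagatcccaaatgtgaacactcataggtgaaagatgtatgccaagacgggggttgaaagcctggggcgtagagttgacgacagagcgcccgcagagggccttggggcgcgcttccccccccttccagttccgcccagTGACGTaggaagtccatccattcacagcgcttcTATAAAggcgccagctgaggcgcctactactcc
TGACGT lay 66 bases before the start and TATAAA 33 bases before it. Of 32851 promoter windows of this length, 6.47% held TGACGT and 12.4% TATAAA. No CArG box was found within this window, which says nothing of sites farther upstream.

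Fosl1, which encodes FRA-1, an AP-1 partner without the transactivation domain of FOS, had the largest differences between lines of the 10 genes on the log2 scale. On probe set 1417487_at the preadipose values were 2151, 2001 and 2238 in Swiss 2, 3086, 2785 and 2405 in Swiss 8, 3230.0, 3036 and 3014 in Swiss 9, and 1022 and 1066 in Swiss 19. The non-adipogenic values were 567, 258 and 529 in Swiss 3, 1339, 1378 and 1358 in Swiss 5, and 883, 856 and 1173 in Swiss 22. All 9 arrays of Swiss 2, Swiss 8 and Swiss 9 were above all 11 others, and the arrays of Swiss 19 lay below those of Swiss 5 and among those of Swiss 22.

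Fosl1 was 6.85-fold higher in Swiss 9 (3093 ± 119, SD, n = 3) than in Swiss 3 (452 ± 168, n = 3), with limma adjusted p = 1.33e-09. Its range of 1.91 in log2 between line means was larger than that of 99.6% of all probe sets, whose median range was 0.283 (0.399 for those above background in at least 4 lines). In the pairwise tests 16 of 21 pairs were called. The order was Swiss 9, 8, 2, 5, 19, 22, 3, and it held 2 steps larger than the spread between arrays, from Swiss 2 to Swiss 5 (1.57-fold, adjusted p = 0.00331) and from Swiss 22 to Swiss 3 (2.15-fold, adjusted p = 0.000852). The preadipose line Swiss 19 was lower than Swiss 2, Swiss 8 and Swiss 9, by up to 2.96-fold (against Swiss 9, adjusted p = 8.18e-06). On this probe set it was not called against Swiss 5 or Swiss 22.

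Probe set 1417488_at gave nearly the same profile (r = 0.985 over 7 line means, as a description). Its line means were 940.4, 1159, 1121 and 304 in Swiss 2, 8, 9 and 19, and 570.4 and 409 in Swiss 5 and Swiss 22. In Swiss 3 it was at 105, not above background. It had 16 of 21 pairs called as well, among them Swiss 19 below Swiss 5 (1.88-fold, limma adjusted p = 0.0197).

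Averaged over lines, Fosl1 was at 2257 ± 901 (SD, n = 4) in preadipose and 927 ± 455 (SD, n = 3) in non-adipogenic lines, a 2.43-fold difference that did not pass (log2 difference 0.94 ± 0.33 SE, 95% interval 0.17 to 1.70, limma adjusted p = 0.288). The second probe set differed by 0.68 (adjusted p = 0.433). The difference was 1.81 within the dim arrays, where it passed (adjusted p = 0.0475), and 0.12 within the bright arrays, where Swiss 19 was the only preadipose line. With the second probe set these were 1.39 (adjusted p = 0.0436) and -0.014. With line as a random block, where p is too small as for Fos, both probe sets passed (adjusted p = 0.00173 and 0.0122). Without Swiss 19 the first difference was 1.19 (adjusted p = 0.0838) and without Swiss 3 it was 0.67.

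Fosl2, which encodes FRA-2, was highest in Swiss 5 and Swiss 22. On 1437247_at Swiss 2 was at 2840.5 ± 774, Swiss 8 at 2539 ± 163, Swiss 9 at 2904 ± 91.6 and Swiss 19 at 2376 ± 95.3 (SD, n = 3 arrays, 2 for Swiss 19). The means were 2780.3 ± 151 for Swiss 3, 4047 ± 457 for Swiss 5 and 3979 ± 185 for Swiss 22 (SD, n = 3). Both Swiss 5 and Swiss 22 were higher than each of the other 5 lines, by 1.37-fold to 1.70-fold, in all 10 such pairs (limma adjusted p from 0.00219 to 0.0375), and no other pair was called.

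Fosl2 was the gene whose normalized line means kept the classes apart, but by little. Swiss 3 lay above Swiss 2 by 0.0032 and above Swiss 9 by 0.0054 in log2, neither called, and on scaled intensity Swiss 3 lay below both. The class means were 2665 ± 249.7 and 3602 ± 713, 1.35-fold lower in preadipose lines (log2 difference -0.35 ± 0.11 SE, limma adjusted p = 0.226). With line as a random block, where p is too small as for Fos, the difference passed (adjusted p = 0.0160). It was -0.021 within the dim and -0.51 within the bright arrays. The dimmer probe set, 1422931_at, had another order (r = 0.360 with the first over the lines) and a class difference of 0.04. Its F test was called (adjusted p = 0.0224) but not without replicate 2 (adjusted p = 0.0608) or replicate 3 (adjusted p = 0.0764) of Swiss 3.

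Jun, the strongest transactivator of the AP-1 proteins, was lowest in Swiss 3 on one probe set and in Swiss 19 on the other. On 1417409_at the arrays read 1332, 1663 and 1258 in Swiss 2, 1510.3, 1401 and 1371 in Swiss 8, 1427, 1759 and 1571 in Swiss 9, and 1153 and 1259 in Swiss 19. They read 1014, 1056 and 823 in Swiss 3, 1560.0, 1455 and 1326 in Swiss 5, and 1414, 1526 and 1142 in Swiss 22. The arrays of Swiss 3 were below all others. Those of Swiss 19 came next, overlapping Swiss 2 and Swiss 22 but lying below every array of Swiss 8, Swiss 9 and Swiss 5.

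Jun was 1.64-fold higher in Swiss 9 than in Swiss 3 (limma adjusted p = 0.00113), and all 5 called pairs of this probe set involved Swiss 3. Swiss 19 and Swiss 3 were not called apart. The F test for this probe set (adjusted p = 0.00982) was lost without replicate 3 of Swiss 3 (adjusted p = 0.0601). The second probe set, 1448694_at, placed Swiss 19 lowest (551 ± 24.7) and Swiss 3 in the middle (798 ± 108). Its 2 called pairs put Swiss 19 below Swiss 9 (1.95-fold, adjusted p = 0.00528) and Swiss 5 (1.68-fold, adjusted p = 0.0309). Its F test (adjusted p = 0.0369) was lost without replicates 1, 2 or 3 of Swiss 9 (adjusted p = 0.0645, 0.0970 and 0.0721), replicate 2 of Swiss 3 (0.0522), replicate 2 of Swiss 22 (0.0502) or replicate 1 or 2 of Swiss 19 (0.131 and 0.173). The class differences of Jun were 0.14 and -0.06, and the first was 0.022 without Swiss 3.

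The Jun window is shown because Jun moved with Fosl1 and Myc across the lines. It is chr4:95052223-95052472 on the minus strand, in the same format.
Jun: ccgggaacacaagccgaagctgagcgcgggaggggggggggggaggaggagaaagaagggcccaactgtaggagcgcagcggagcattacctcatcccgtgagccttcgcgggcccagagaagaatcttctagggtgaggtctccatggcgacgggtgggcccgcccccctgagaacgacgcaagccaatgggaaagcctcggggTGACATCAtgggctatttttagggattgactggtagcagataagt
TGACATCA lay 45 bases before the start, a match found in 2.93% of the 32851 windows.

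Junb, an AP-1 subunit that can restrain JUN activity, separated the lines within both classes. On the preadipose arrays it was at 3819, 3743 and 4546 in Swiss 2, 3697, 3987 and 3826 in Swiss 8, 3351, 3419 and 3162 in Swiss 9, and 2256 and 2281 in Swiss 19. On the non-adipogenic arrays it was at 2838, 3381 and 3297 in Swiss 3, 1743, 1818 and 1957 in Swiss 5, and 3022, 3291 and 2717 in Swiss 22. The arrays of Swiss 5 were below all others, those of Swiss 19 were next, and those of Swiss 9, Swiss 3 and Swiss 22 overlapped.

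Junb was 2.19-fold higher in Swiss 2 than in Swiss 5 (limma adjusted p = 4.77e-08), and 14 of 21 pairs were called. Between neighbours in the order, Swiss 22 was 1.33-fold higher than Swiss 19 (adjusted p = 0.0333). Junb was also the only probe set of the 16 that differed between Swiss 5 and Swiss 22 (1.64-fold, adjusted p = 0.00118). Its class difference was 0.28 (3363 ± 791 against 2674 ± 727, adjusted p = 0.721). The direction changed with array brightness: the difference was 0.17 within the dim arrays, -0.18 within the bright arrays and -0.0051 with brightness as a block.

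Jund, the least serum-dependent JUN gene, was highest in Swiss 2 and Swiss 8 and lowest in Swiss 9. The line means on 1449117_at were 5881 ± 649.9, 5477 ± 115, 3449.6 ± 320.2 and 4651 ± 364 in Swiss 2, 8, 9 and 19 (SD, n = 3 arrays, 2 for Swiss 19). They were 4105 ± 255, 4275 ± 258 and 4455 ± 420.5 in Swiss 3, 5 and 22 (SD, n = 3). The 3 non-adipogenic lines lay close together and no pair of them was called, while Swiss 2 was 1.70-fold higher than Swiss 9 (limma adjusted p = 2.63e-05). In all, 11 pairs were called and none between neighbours in the order. The class difference was 0.14 (adjusted p = 0.832). The dimmer probe set, 1440265_at, was above background in all 7 lines at 105 to 217, with no pair called.

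Egr1, the zinc finger factor that carries the acute growth factor response, had the largest share of its variation between lines of one class among the 16 probe sets. On the preadipose arrays it was at 681, 669 and 867 in Swiss 2, 1221, 1222 and 1281 in Swiss 8, 575, 429 and 486 in Swiss 9, and 315 and 325 in Swiss 19. On the non-adipogenic arrays it was at 794, 829.6 and 789 in Swiss 3, 637, 544 and 512 in Swiss 5, and 922, 722 and 757 in Swiss 22. The highest and the lowest line were thus both preadipose, and neither overlapped any other line.

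Egr1 was 3.88-fold higher in Swiss 8 than in Swiss 19 (limma adjusted p = 3.17e-07), and 15 of 21 pairs were called. Among neighbours, Swiss 8 was above Swiss 3 (1.54-fold, adjusted p = 0.000730) and Swiss 9 above Swiss 19 (1.55-fold, adjusted p = 0.0299). Swiss 8 was also 2.50-fold above Swiss 9 (adjusted p = 1.95e-05), the pair of preadipose lines with the fewest calls over all probe sets (2.92%). Class accounted for 0.135% of the sum of squares of Egr1 over the 20 arrays, lines within a class for 94.5% and arrays within a line for 5.34%. The class difference was -0.07 (699 ± 400.3 against 723 ± 137, adjusted p = 0.963). It became 0.10 without Swiss 19.

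Egr2 was near background. Its probe set 1427683_at exceeded background in Swiss 8 alone (183, 33.9 and 114, mean 110.2 ± 74.5), and 1427682_a_at in no line, with line means between 5.83 and 38.6. No fold is given, and no difference was detectable at this signal.

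Myc, which encodes the bHLH factor that drives ribosome and nucleotide synthesis, was highest in Swiss 9 and Swiss 8 and lowest in Swiss 3. On the preadipose arrays it was at 997, 1509 and 871 in Swiss 2, 1873, 1791 and 1580.4 in Swiss 8, 1983, 1886 and 1548 in Swiss 9, and 915 and 1118 in Swiss 19. On the non-adipogenic arrays it was at 609, 601 and 690.2 in Swiss 3, 1252, 1695 and 1360.3 in Swiss 5, and 985, 1253 and 1340.5 in Swiss 22. Swiss 3 was below every other array, and the arrays of Swiss 2 spread over those of Swiss 19, Swiss 22 and Swiss 5.

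Myc was 2.85-fold higher in Swiss 9 than in Swiss 3 (limma adjusted p = 1.17e-05), and 10 of 21 pairs were called. No neighbours in the order Swiss 9, 8, 5, 22, 2, 19, 3 were called apart. Swiss 3 was lower than its fellow non-adipogenic lines Swiss 5 (2.27-fold, adjusted p = 0.000493) and Swiss 22 (1.88-fold, adjusted p = 0.00758). The class means were 1424 ± 411 and 1087 ± 412 (log2 difference 0.30, 95% interval -0.21 to 0.80, adjusted p = 0.698), and the difference was 0.078 without Swiss 3. It was 0.88 within the dim and -0.063 within the bright arrays.

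Srf, the DNA-binding factor that serum acts through, was nearly even across the lines apart from Swiss 2. On 1418255_s_at the line means were 536 ± 95.6, 803 ± 39.4, 771 ± 32.2 and 809 ± 31.7 in Swiss 2, 8, 9 and 19 (SD, n = 3 arrays, 2 for Swiss 19). They were 921 ± 116, 852 ± 174 and 798 ± 103 in Swiss 3, 5 and 22 (SD, n = 3). Swiss 2 was low on all 3 arrays (587, 425 and 594), below every array of every other line. Swiss 5 and Swiss 22 overlapped each of the remaining lines, while every array of Swiss 3 was above those of Swiss 8, Swiss 9 and Swiss 19, with none of these pairs called.

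Swiss 2 accounted for all 4 called pairs, the largest against Swiss 3 (1.72-fold, limma adjusted p = 0.00232). The second probe set, 1418256_at, also had Swiss 2 lowest (332 ± 184) and placed Swiss 8 highest (755 ± 158). The F tests of the 2 probe sets (adjusted p = 0.0311 and 0.0212) were lost without replicate 2 of Swiss 2 (adjusted p = 0.176 and 0.0822). The first was also lost without replicate 3 of Swiss 3 (adjusted p = 0.0567), and the second without replicate 3 of Swiss 2 (adjusted p = 0.0711). The class differences were -0.14 and 0.08 (adjusted p = 0.642 and 0.913).

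The Srf window is shown because SRF is known to act on its own gene through CArG boxes. It is chr17:46556163-46556412 on the minus strand.
Srf: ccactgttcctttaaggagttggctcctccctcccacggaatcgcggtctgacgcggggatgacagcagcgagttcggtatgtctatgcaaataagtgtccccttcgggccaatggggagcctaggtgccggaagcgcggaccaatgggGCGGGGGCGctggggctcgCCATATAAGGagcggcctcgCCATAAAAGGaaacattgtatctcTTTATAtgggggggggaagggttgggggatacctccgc
CArG boxes lay 82 and 62 bases before the start (CCATATAAGG and CCATAAAAGG), with a GCGNGGGCG match at 101 and TATAAA on the other strand at 38. A CArG box was found in 1.47% of the 32851 windows and GCGNGGGCG in 4.70%. Among the other windows searched, which held none of Egr1, Fosl1 or Myc, CArG boxes were found in those of Egr2 alone. CCATATATGG lay 72 bases before one of the Egr2 starts on chromosome 10. None of the 8 motifs was found in the windows of Junb and Jund.

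**Figure D2:**
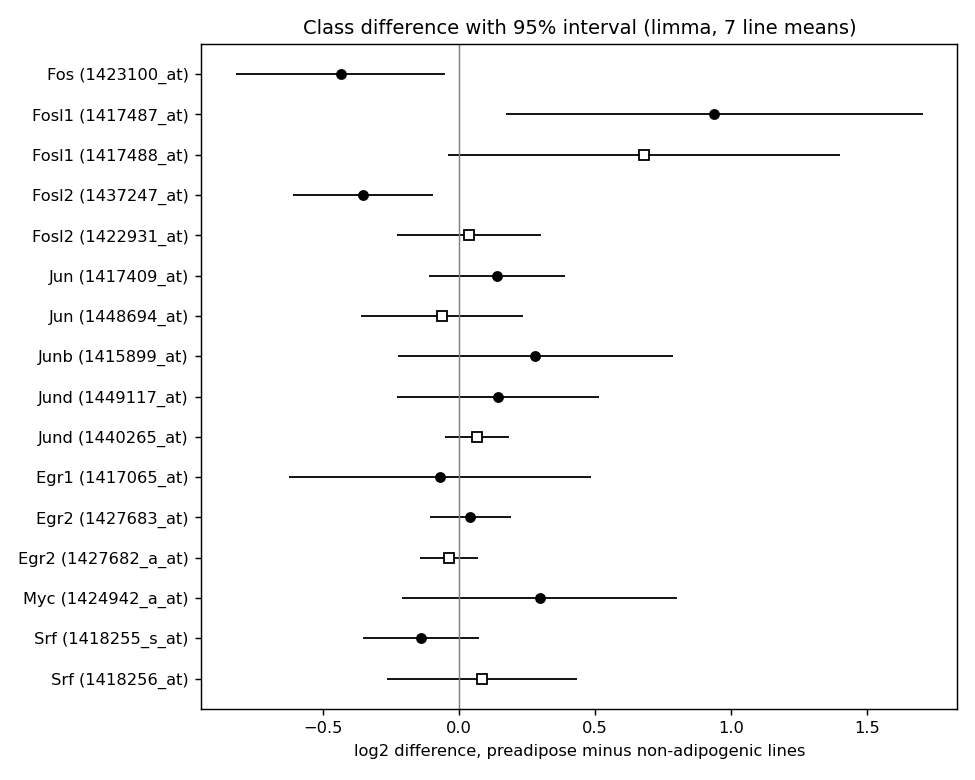
Log2 difference between preadipose and non-adipogenic lines with its 95% interval for the 16 probe sets (limma on 7 line means; filled circles, the brightest probe set of a gene; open squares, the second). The intervals of Fos, Fosl1 (1417487_at) and Fosl2 (1437247_at) lie to one side of 0, but none of the 16 passed after adjustment.

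**Figure D3:**
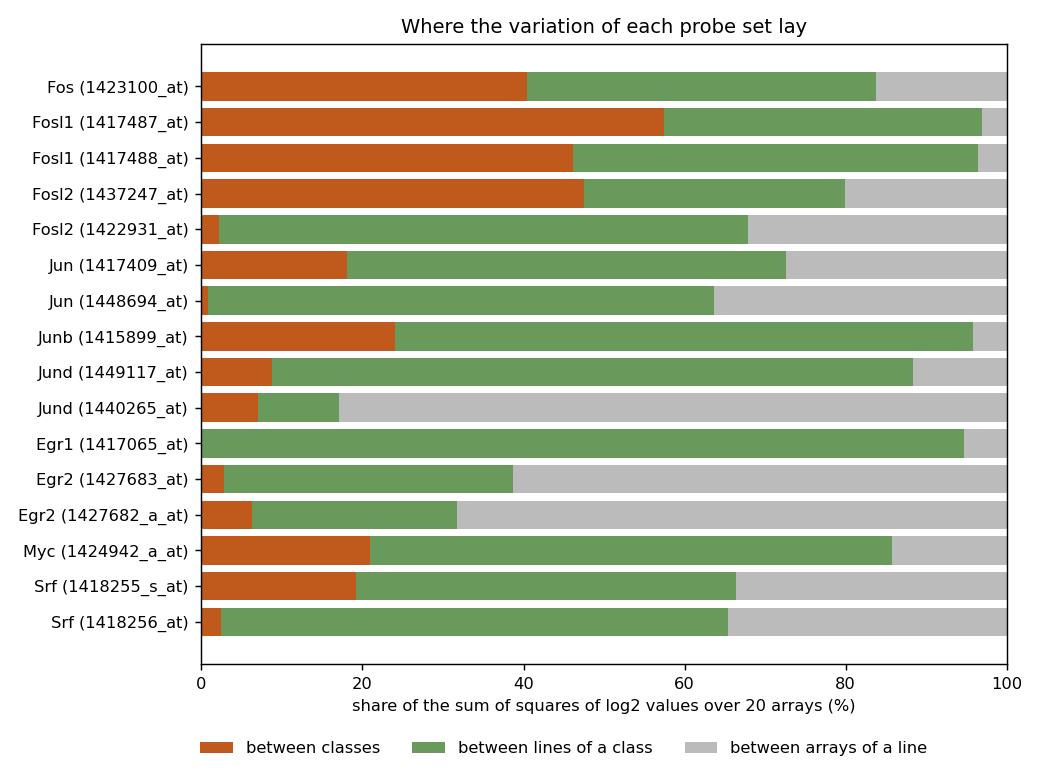
Percent of the sum of squares over 20 arrays that lay between classes (orange), among lines within a class (green) and among arrays within a line (grey), for the 16 probe sets. Egr1 varied between lines of a class (94.5%), Fosl1 between classes (57.4%) and lines (39.5%), and the dimmer Jund and both Egr2 probe sets mostly between arrays of a line.

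For most of these probe sets, more of the variation lay between lines than between arrays of a line. Arrays of a line held 82.9% for Jund 1440265_at and 61.4% and 68.3% for the 2 Egr2 probe sets. They held 27.4% and 36.3% for Jun, 33.6% and 34.6% for Srf and 32.1% for Fosl2 1422931_at. Shares for class, for lines within a class and for arrays within a line were 57.4%, 39.5% and 3.14% for Fosl1 and 40.5%, 43.3% and 16.3% for Fos. They were 24.0%, 71.8% and 4.24% for Junb and 20.95%, 64.8% and 14.3% for Myc. Medians over the 25841 probe sets above background in at least 4 lines were 8.42%, 36.1% and 44.3%. With 4 and 3 lines a class share is not 0 even where class has no part, so these shares are descriptions.

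Across the 7 line means, the brightest probe sets of Fosl1, Jun and Myc ran together, and Fos had negative values with each of them. The second Jun probe set had r of 0.53 with the first and placed Swiss 3 in the middle. The values for Jun therefore hold for 1417409_at alone. Pearson's r was 0.90 for Fosl1 with Jun (Spearman's rho 0.93), 0.90 for Fosl1 with Myc (rho 0.82) and 0.92 for Jun with Myc (rho 0.79). Fos gave -0.78 with Fosl1 (rho -0.68), -0.75 with Myc (rho -0.57) and -0.74 with Jun (rho -0.50), the last falling to -0.30 without Swiss 3. These were read from 45 pairs of genes as descriptions, on lines that share their arrays and brightness. Swiss 3 lay at the end of each relation, and without it (n = 6 lines, an alternative chosen with the data in view) the first 5 values were 0.82, 0.79, 0.79, -0.54 and -0.42 in the same order. With arrays centred on their medians the 7 lines gave 0.60, 0.80, 0.94, -0.51 and -0.040, and without normalization 0.75, 0.87, 0.97, -0.017 and 0.44, so the relations of Fos depended on the scaling. Egr1 and Junb had r of 0.18 and 0.37 with Fosl1, so the 10 genes did not share 1 profile.

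**Figure D4:**
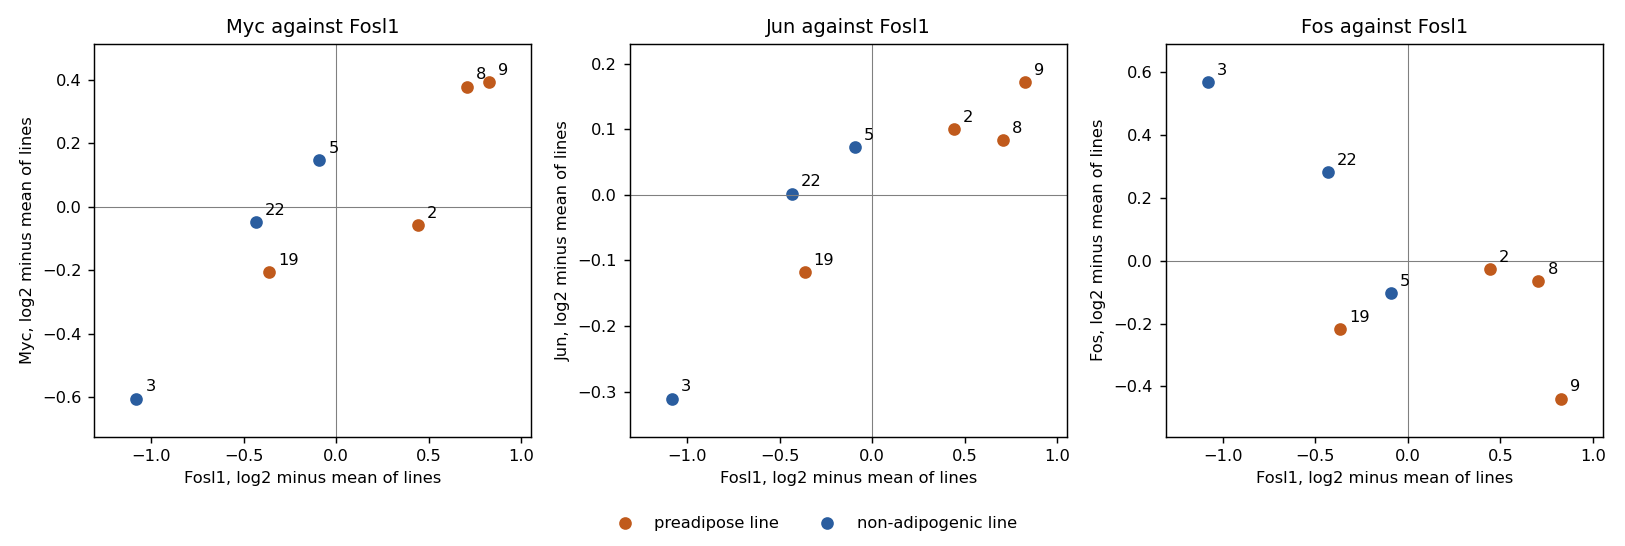
Line means of Myc, Jun and Fos against those of Fosl1, by brightest probe set and as log2 minus the mean of the 7 lines. Orange marks preadipose and blue non-adipogenic lines, with the line number beside each point. Swiss 3 lies at one end in all 3 panels, at -1.08 for Fosl1, -0.60 for Myc and 0.57 for Fos.

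Proliferation markers followed the same lines. All 13 measured markers were above background in every line. Their summed scaled intensity was 23909 in Swiss 3 and 51492 to 77168 in the other 6 lines, and their mean log2 in Swiss 3 was 0.90 below the mean of the lines, although Swiss 3 is labelled proliferating like the rest. The mean of these markers had r of 0.89 with Myc, 0.86 with Fosl1, 0.88 with Jun and -0.78 with Fos over the 7 lines (0.79, 0.84, 0.53 and -0.30 without Swiss 3). These r were not computed under other scalings. The part of the growth state of Swiss 3 in its low Fosl1, Jun and Myc and its high Fos was not tested, with Jun read on 1417409_at. None of the 13 markers was called between classes, though all 13 differences were positive (median 0.41), against 6 of 13 with arrays centred on their medians and 4 of 13 without normalization. Relative to the median of 500 probe sets of like level, all 13 were positive under both of those scalings. The class difference of the mean of the list was 0.49, and 0.18 without Swiss 3. Mcm3, a subunit of the replicative helicase, differed by 0.85 and Pcna, the polymerase clamp, by 0.80 (adjusted p = 0.222 and 0.113).

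MYC target genes, like Myc, were highest in Swiss 8 and Swiss 9 and lowest in Swiss 3. Their mean over 25 genes was 0.37 in Swiss 8 and 0.35 in Swiss 9 and -0.56 in Swiss 3, in log2 relative to the mean of the lines. The mean had r of 0.94 with Myc and 0.94 with Fosl1 (0.86 and 0.88 without Swiss 3). The median r of the single targets was 0.83 with Myc, beside 0.015 for the 12636 genes compared. Over classes, 22 of the 25 differences were positive (median 0.38) and none was called, with 9 positive after median centring and 5 without normalization, but 23 relative to probe sets of like level under both. The class difference of the mean of these targets was 0.43, and 0.26 without Swiss 3. Tfrc, the transferrin receptor, differed by 1.33 and Nop56, a nucleolar protein, by 1.16 (adjusted p = 0.101 and 0.0890). Of 11 MYC partners none was called, 2 differences were positive, and Mlx, a partner of the MAX network, was at -0.19 (adjusted p = 0.402).

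AP-1 targets were mixed. None of the 16 measured was called and 11 differences were positive (median 0.24), with 10 after median centring and 5 without normalization. Relative to probe sets of like level, 11 were positive under both of those scalings. Timp1, an inhibitor of matrix metalloproteinases, differed by 1.10 and Ezr, which links membrane and actin, by 0.98 (adjusted p = 0.110 and 0.143). The mean of the list had r of 0.84 with Fosl1 and -0.90 with Fos over the lines (0.80 and -0.92 without Swiss 3, for 14 genes above background). These r were not computed under the other scalings. Without normalization r of Fos was -0.017 with Fosl1 and 0.44 with Myc, so the value for Fos is not read as firm.

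**Figure D5:**
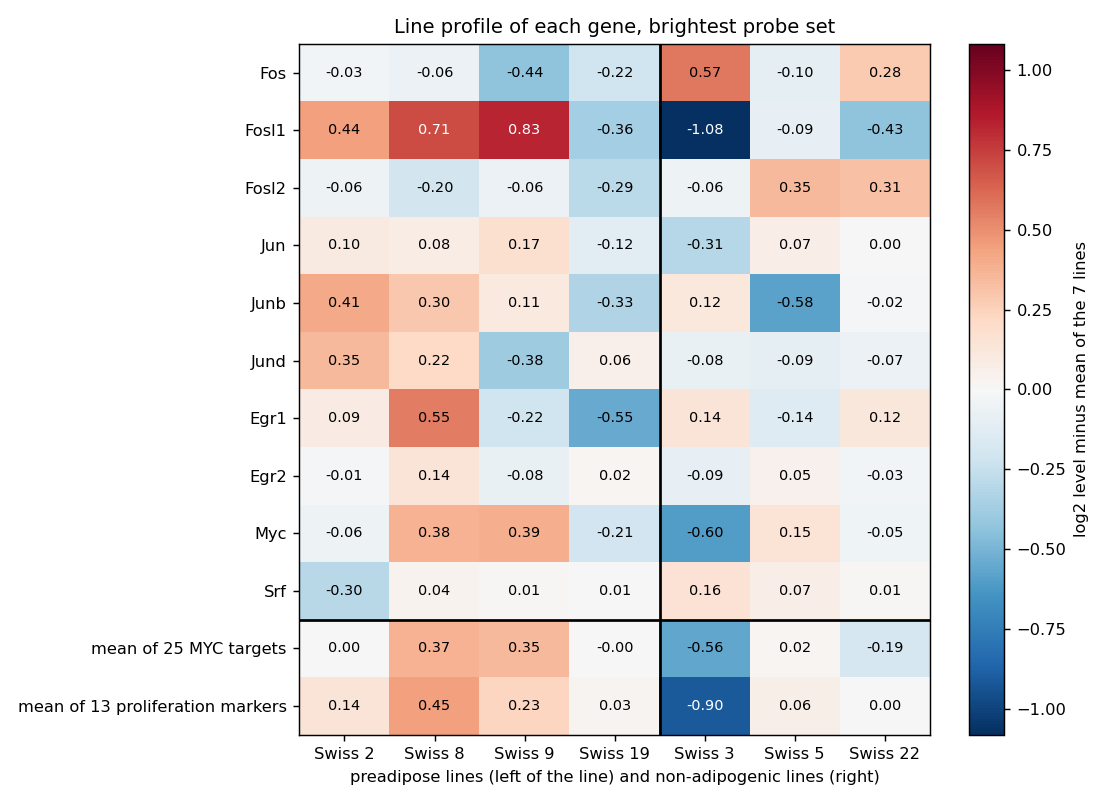
Log2 level minus the mean of the 7 lines for the brightest probe set of each of the 10 genes, and for the mean of 25 MYC targets and of 13 proliferation markers, by line (red, higher; blue, lower). Swiss 3 is at -1.08 for Fosl1, -0.60 for Myc and -0.90 for the proliferation markers, and Egr1 runs from 0.55 in Swiss 8 to -0.55 in Swiss 19.

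Among other early response genes, 1 passed by a narrow margin between the classes. Phlda1, an early gene whose product binds phosphoinositides, was 1.94-fold higher in preadipose lines (2423 ± 375 against 1249 ± 139, log2 difference 0.72, limma adjusted p = 0.0375). The call was lost in 7 of 13 alternatives, among them median centring (0.28, adjusted p = 0.912), the spike covariate (0.66, adjusted p = 0.136) and the dim or bright arrays alone. It was also lost without Swiss 2, Swiss 8, Swiss 3, Swiss 5 or Swiss 22 (adjusted p from 0.0882 to 0.120), with the difference positive throughout. It was the only called gene of the 24 other immediate early genes measured (14 positive, median 0.07). Of the 27 other AP-1 and immediate early transcription factors none was called (11 positive, median -0.01). Among these, Id2, a dominant-negative bHLH factor, was at 834 ± 313 against 1752 ± 140.0 (log2 difference -0.77, adjusted p = 0.110). Klf10, a TGF-beta induced repressor, was at 707 ± 62.7 against 358 ± 129 (0.52, adjusted p = 0.0816).

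No gene of the signalling and SRF lists around these factors was called. The counts of positive differences here were lower under those scalings (for SRF and MRTF targets, 7 of 20 after median centring and 5 without normalization). Relative to probe sets of like level, 15 of these 20 targets were positive under both. Such counts were 7 of 18 for feedback inhibitors, 6 of 15 for the ERK, JNK and p38 cascade and 5 of 9 for SRF partners. In the list of MAP kinase phosphatases and feedback inhibitors, 12 of 18 differences were positive (median 0.0017). Spry2, a feedback inhibitor of receptor signalling to ERK, was at 1240.3 ± 456 against 3729 ± 1300 (-1.26, adjusted p = 0.108), and Rasa1, a RAS GTPase activator, was at -0.39 (adjusted p = 0.120). Of the 15 genes of the ERK, JNK and p38 cascade measured, 8 were positive (median 0.0090), and Map2k1, the kinase of ERK, differed by -0.07 (adjusted p = 0.613). Of 9 SRF partners 5 were positive (median 0.0054), with Elk3, a ternary complex factor, at -0.41 (adjusted p = 0.129) and Nab1, a corepressor of EGR proteins, at 0.27 (adjusted p = 0.228). Of 20 SRF and MRTF targets 15 were positive (median 0.26), with the integrin Itga5 at 0.80 (adjusted p = 0.0737) and the actin crosslinker Flna at 0.68 (adjusted p = 0.409). Swiss 19 stood apart in this list: its mean log2 relative to the mean of the lines was 0.82, against -0.28, -0.087 and -0.010 in Swiss 2, 8 and 9 and -0.38, -0.044 and -0.017 in Swiss 3, 5 and 22. The class difference of these means was 0.26 with all lines, 0.023 without Swiss 19 and 0.14 without Swiss 3. Heat shock genes, taken as a sign of handling stress, had 0 of 8 called and 5 positive (median 0.17). Dnajb1, a co-chaperone, differed by 0.37 (adjusted p = 0.112). The mean difference had the opposite sign to the median for heat shock genes (-0.0090), the other transcription factors (0.031), the feedback inhibitors (-0.055), SRF partners (-0.015) and fibroblast markers (-0.24).

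Among marker lists, only Pdgfra, the receptor for platelet-derived growth factor in serum, was called. It was 5.08-fold lower in preadipose lines (5219.9 ± 1453 against 26512 ± 3381, limma adjusted p = 0.00901). The call was lost with median centring, without normalization and within the bright arrays, where the log2 differences were -2.82, -2.95 and -1.75, and it held with each line left out. In all, 5 of the 10 fibroblast markers were positive (median 0.02). Of the 7 macrophage and leukocyte markers 3 were positive (median -0.0071) and 0 called. Among them Csf1r, a macrophage receptor gene, was at 654 ± 74.4 against 462 ± 35.7 (0.27, limma adjusted p = 0.0922).

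The genes most like each member were sought among 11951 genes above background in at least 4 lines, by Pearson's r over the 7 line means. For Fosl1 they were Prelid3b (r = 0.996), Ccdc58 (0.994) and Haus4 (0.988), and for Myc Cstf2 (0.994), Uck2 (0.990) and Cnih4 (0.988). Fos was most like Zup1 (0.987), Sh3d19 (0.984) and Nudt16l1 (0.978), and Jun most like Mrps22 (0.986), Ddx49 (0.985) and Nans (0.981). The nearest gene was Zfp982 for Junb (0.975), Tmem198 for Jund (0.989), Chchd7 for Egr1 (0.985), Wdr53 for Fosl2 (0.986) and Vps37a for Srf (0.977). Among so many genes, 7 points leave many high values: 1 gene in 100 had r above 0.941 with Fosl1 and above 0.794 with Egr1.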

How the data were processed

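RNA of 20 samples from 7 lines was primed with oligo-dT, transcribed into biotinylated RNA and hybridized to 3' expression arrays, per the labels' protocols. The deposited values are linear intensity per probe set. How the authors summarized and scaled them is not given in the sources used here, and they were not on a common scale. Depth is not defined for arrays, and the number of arrays and lines limits the precision. The 64 control probe sets were left out of the tests. The platform annotation gave 1 symbol to 34945 of 45037 probe sets, several to 932 and none to 9160, and all 10 member symbols matched the gene table of GRCm38.p6.

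Intensities were taken as log2(intensity + 32) and quantile-normalized. With limma 3.58.1 in R 4.3.3, classes were compared on 7 line means, and lines by a moderated F test and 21 contrasts on 20 arrays. Adjustment was by Benjamini-Hochberg over all 45037 probe sets, with a threshold of 0.05. The fits were tested on simulated data. A gene was represented by its brightest probe set with 1 symbol. All members are named. From each list, up to 3 called genes are named, or, with none called, up to 2 without overlap of line means, by size of difference. The 3 genes most like each member were found by r. Scaled intensity trims 2% at each end. Alternatives were other scalings, offsets and filters, brightness, and arrays or lines left out. The members and lists were chosen with earlier results of these data known.

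Same-numbered arrays of different lines did not deviate together (mean r of 0.0023, -0.0026 and -0.00090 for replicates 1, 2 and 3, with single values from -0.044 to 0.053), so the numbers were not used as pairs.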

Additional observations from a re-analysis of the deposited data

Results flagged for a closer look

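Srf on 1418255_s_at stood out in Swiss 2. Its line mean of 536 lay far below those of the other 3 preadipose lines (771 to 809), with the gap to the nearest of them making up 0.859 of the whole range (Dixon's test). Chance gives such a gap in about 1 in 20 groups, and 16 groups of 4 preadipose line means were examined. Swiss 2 was also lowest on 1418256_at, at 332. The Swiss 2 arrays had the highest background of the lines (143) and were among the dim arrays. The part of signal strength in this value was not tested.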

How the results depend on the processing

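No member was called between classes under 11 of 13 alternatives or with any array or line left out. With the line as a random block (1 correlation, 0.174, for all probe sets) 4 probe sets were called, and within the dim arrays 2. Over all probe sets, 124 were higher and 245 lower as reported. The counts were 0 and 3 with arrays centred on their medians, 0 and 2 without normalization, 38 and 54 with scaling before the offset, 263 and 390 without dimmer probe sets, and 49 and 61 with spike level as a covariate. They were 1680 and 1965 with the random block, 61 and 88 within dim and 0 and 0 within bright arrays. Leaving out a line gave 14 to 223 higher and 32 to 399 lower: 41 and 80 without Swiss 2, 34 and 54 without Swiss 8, 46 and 110 without Swiss 9, 223 and 399 without Swiss 19, 28 and 73 without Swiss 3, 14 and 32 without Swiss 5, and 14 and 33 without Swiss 22. The line F test called 11354 probe sets as reported, 32790 with medians, 29968 without normalization and 6515 with 1 probe set per gene, which tests fewer. It called 13 members, 8 with scaling before the offset, and 10 to 13 with an array left out. Pairwise calls of members numbered 116 as reported, 183 with medians, 194 without normalization and 64 with the spike covariate. Pairwise shares over all probe sets were not counted under these alternatives.

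Without normalization the median of all probe sets shifted by -0.12, and directions turned. With median centring the class difference was -0.26 for Fosl2 1422931_at, -0.30 for Jun 1417409_at, -0.23 for Junb, -0.41 for Jund 1449117_at, 0.054 for Egr2 1427682_a_at, -0.15 for Myc and -0.11 for Srf 1418256_at. Without normalization it was -0.39, -0.42, -0.36 and -0.53 for the first 4, -0.087 for Jund 1440265_at, -0.024 for Egr2 1427683_at, -0.28 for Myc and -0.23 for Srf 1418256_at. Relative to the median of 500 probe sets of like level, Jun, Junb and Myc were at 0.099, 0.29 and 0.23 under both scalings. The spike covariate gave Junb -0.11 and Jund 1440265_at -0.0019, and brightness as a block gave Junb -0.0051. Within dim arrays Jun 1448694_at was 0.032 and Egr2 1427682_a_at 0.040. Within bright arrays Fosl1 1417488_at was -0.014, Fosl2 1422931_at -0.065, Junb -0.18, Jund 1440265_at -0.017 and Myc -0.063. With a line left out, differences ran from -0.079 to 0.097 for Fosl2 1422931_at, from -0.16 to 0.042 for Jun 1448694_at and from -0.26 to 0.10 for Egr1. The cause of these changes was not tested.

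With the replicate block, 120 probe sets were higher and 227 lower between classes, and 12 of the 16 member probe sets were called by the F test. Srf 1418255_s_at was lost (adjusted p = 0.0569), and no other member call changed. The F count over all probe sets was not among those that changed strongly. Over all alternatives, the F call of Srf 1418255_s_at was lost in 4 of 9 and that of Jun 1448694_at in 3 of 8. Dim signal limits Fos and Egr2: Fos was not above background in Swiss 9, nor Egr2 in 6 of 7 lines.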
